A study of Yarrowia lipolytica with 3 samples.

Results

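The libraries of 2 engineered strains of the yeast Yarrowia lipolytica were compared directly, a strain overexpressing MHY1 against an mhy1Δ strain that lacks the gene. Both strains derive, per the labels, from PO1a, and the wild-type PO1a library was the only other library of the study. The cultures, 1 per strain, were grown at 30 °C in 50 ml of a medium named YNDC7, with uracil added, and had reached an OD600 of 0.8 at harvest. The sources used here do not name the promoter that drives MHY1, the method of deletion or the number of clones. Expression was deposited as RPKM, the reads of a gene divided by its length and by the reads of the library. Of 6448 listed genes, the 6035 at 1 RPKM or more in at least 1 of the 3 libraries were compared, and the wild-type library entered this filter but not the ratio. The ratio was log2((overexpression RPKM + 1)/(deletion RPKM + 1)), and a gene was called higher or lower at 2-fold or more. With 1 library a side there was no test, no replicate spread and no check on culture-to-culture variation. Folds given for single genes are plain RPKM ratios without the pseudocount, so they can exceed the fold that the log2 ratio implies, most at low levels. The 95% intervals beside these folds are exact conditional binomial intervals that cover counting error only.

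Mhy1 is a C2H2 zinc-finger protein known in Y. lipolytica for its part in the switch from round yeast cells to hyphae. The species is also known for living on fats and alkanes: cytochromes P450 hydroxylate alkanes, alcohol and aldehyde dehydrogenases turn the alcohols into fatty acids, and β-oxidation in peroxisomes shortens the activated acids to acetyl-CoA. The glyoxylate cycle and gluconeogenesis then build sugars from acetyl-CoA. Several of these steps are carried by families of related enzymes. The files hold identifiers without gene names, and none matched the RefSeq table used here. The names and roles below therefore rest on recalled Yarrowia nomenclature, checked only by the coding length that the RPKM values imply, and some may be wrong. Reads shared between similar family members could not be told apart.

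MHY1 (YALI0B21582g, on chromosome B by its identifier, like every chromosome given here) stood as the strain labels say. It was listed at 0 RPKM in the deletion library, at 467 RPKM in wild type and at 1159 RPKM in the overexpression library. Against a floor of 3 reads in the deletion library, or 0.0587 RPKM, the overexpression level was at least 19730-fold higher. The genes next to it in identifier order were close in both libraries. YALI0B21560g was at 120 RPKM in the deletion and 113 in the overexpression library, and YALI0B21604g was at 98.0 and 114 RPKM. The implied library totals were 47622181, 59527000 and 75306802 reads for wild type, deletion and overexpression, and listed genes held 95.8% to 96.0% of them.

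Far more genes were higher than lower in the overexpression library, and the excess was widest among weakly expressed genes. At 2-fold, 906 genes were higher, or 15.0% of those compared, and 286 were lower, or 4.74%. The other 4843 genes, 80.2%, were within 2-fold. Of the called genes under 10 RPKM in both libraries, 241 were higher and 23 lower, or 152 and 19 without the genes that passed the filter by 1 of these libraries alone. Of those that reached 100 RPKM in either library, 204 were higher and 157 lower, so the excess was much smaller among abundant transcripts. Among called genes, 862 higher and 269 lower ones had a counting interval wholly past 2-fold. These intervals surround the plain ratio without the pseudocount, which is past 2-fold in every called gene. They also rest on the same reads as the calls, so these counts are no separate check on the calls. Over all compared genes the deposited values gave a median log2 ratio of 0.20. It was −0.0026 after median of ratios scaling and 0.04 after upper-quartile scaling, so ratios are read below against a centre of 0.20. After centring on that median, 683 genes were higher and 386 lower, and the share of called genes that were higher went from 76.0% to 63.9%. The scalings gave 704 higher and 388 lower (64.5%), and 752 higher and 370 lower (67.0%).

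**Figure D1:**
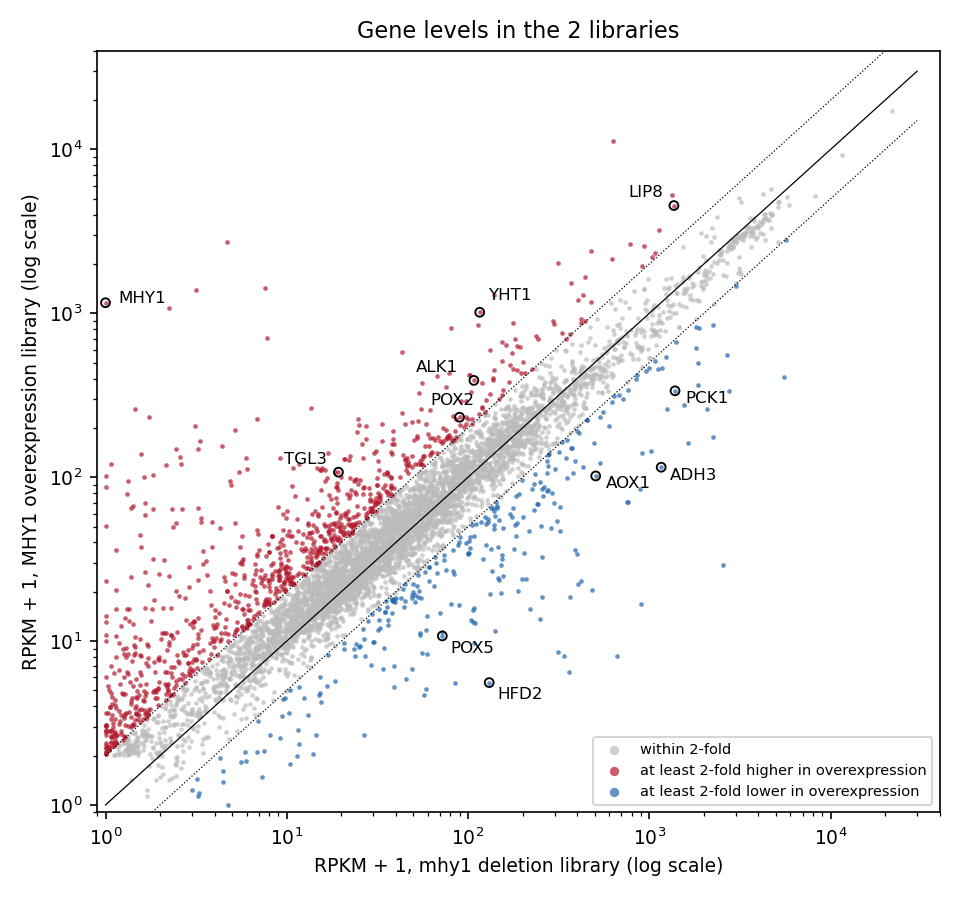
RPKM + 1 of each of the 6035 compared genes in the deletion library (horizontal axis) and the overexpression library (vertical axis), both on log scales, with lines at equality and at 2-fold. The 906 genes called higher spread toward the lower left, the 286 called lower lie mostly at higher levels, and MHY1 stands at the left edge.

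Most called genes differed by less than 4-fold. Of the higher genes 637 were between 2-fold and 4-fold, 175 between 4-fold and 8-fold, 41 between 8-fold and 16-fold, and 53 at 16-fold or above, with the pseudocount of 1 RPKM in both levels. Of the lower genes the same classes held 193, 58, 23 and 12. The higher genes had a median level of 7.65 RPKM in the deletion, 17.6 in wild type and 31.7 in the overexpression library, whereas the lower genes had medians of 122, 62.2 and 26.02 RPKM. Together the higher genes made up 3.17% of the summed RPKM in the deletion and 12.5% in the overexpression library, and the lower genes 9.27% and 2.68%. RPKM measures shares of the RNA in a culture, so fewer cells of a form, such as hyphae, and less RNA per cell cannot be told apart.

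In β-oxidation, 5 of the 8 genes were called higher and 1 lower, beside 15.0% and 4.74% of all genes, with a median log2 ratio of 1.27. The members, as in all lists below, were chosen with earlier results of these libraries known, so the counts are descriptions. The split ran through the acyl-CoA oxidases, which catalyse the first step. POX2 (YALI0F10857g), the oxidase for long chains, was at 88.7 RPKM in the deletion, 78.8 in wild type and 231 in the overexpression library. POX3 (YALI0D24750g), the oxidase for short chains, was at 125, 126 and 297 RPKM. For this pair the deletion and wild-type libraries were nearly level and the overexpression library alone was high, by 2.61-fold (2.55 to 2.66) and 2.38-fold (2.33 to 2.42) over the deletion. POX4 (YALI0E27654g) was at 17.8, 35.0 and 59.4 RPKM and POX6 (YALI0E06567g) at 13.9, 34.2 and 56.8 RPKM in the same order. These last 2 oxidase genes were low in the deletion library too, and stood 3.34-fold and 4.09-fold higher in the overexpression library. POX1 (YALI0E32835g) was weak, at 1.21 RPKM in the deletion and 4.45 in the overexpression library, and with a pseudocount of 5 RPKM its log2 ratio of 1.30 was 0.61. POX5 (YALI0C23859g) had the opposite order, at 71.1, 30.2 and 9.75 RPKM, 7.29-fold lower in the overexpression library.

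The later steps did not follow the oxidases uniformly. MFE1 (YALI0E15378g), the multifunctional enzyme of the middle steps, was at 581, 568 and 591 RPKM in deletion, wild type and overexpression and was within 2-fold, with a log2 ratio of 0.02 that fell below 0 under both scalings and after centring. POT1 (YALI0E18568g), the thiolase that releases acetyl-CoA, was at 302.8, 203 and 597.8 RPKM and missed the 2-fold line narrowly, with a log2 ratio of 0.98. ANT1 (YALI0E03058g), which carries ATP into peroxisomes for the activation of fatty acids, was at 60.5, 64.7 and 172 RPKM, 2.85-fold higher in the overexpression library (2.74 to 2.96). Of the 5 genes of activation and import ANT1 alone was called, beside 15.0% of all genes called higher. The other 4 were within 2-fold, as were 80.2% of all genes. Their log2 ratios were 0.66 and 0.55 for PXA1 and PXA2, the peroxisomal fatty acid transporter subunits, 0.37 for FAT1, and 0.07 for FAA1, the acyl-CoA synthetase, whose ratio fell below 0 after centring.

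Of the 14 peroxisome biogenesis genes, 13 had log2 ratios above 0, beside 64.6% of all genes, and 1 was called higher, no more than the 15.0% of all genes. The median was 0.36 against 0.20 for all genes, and after centring 10 of the 14 were above 0. PEX19 (YALI0B22660g), the carrier of peroxisomal membrane proteins, was the called member, at 72.1 RPKM in the deletion, 113 in wild type and 166 in the overexpression library. Its log2 ratio of 1.19 was 0.98 with median of ratios scaling, just under 2-fold. PEX14 of the docking complex had a ratio of 0.93, the ATPase PEX6 0.83 and the import receptor PEX5 0.68. PEX10 was at 0.04 and PEX20 at 0.00, and PEX13 was at −0.22. No biogenesis gene had a ratio as high as those of POX1, POX2, POX3, POX4 and POX6, nor as low as that of POX5.

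Among the P450 genes of alkane oxidation, 6 of the 10 compared were called higher and 1 lower, with a median log2 ratio of 1.10. Of all genes 15.0% were higher and 4.74% lower, and in the lowest decile of expression, which holds ALK7, ALK9, ALK11 and ALK12, 37.9% were higher. After centring 4 were called higher and 1 lower. ALK1 (YALI0E25982g), the main alkane hydroxylase of the species, was at 107 RPKM in the deletion, 259 in wild type and 388 in the overexpression library, 3.64-fold higher (3.56 to 3.72). ALK3 (YALI0E23474g) was at 80.9, 126 and 165 RPKM and passed 2-fold narrowly, with a log2 ratio of 1.02 that was 0.81 to 0.85 under the scalings and centring. ALK2 (YALI0F01320g) went the other way, at 37.9, 18.8 and 6.05 RPKM, 6.27-fold lower in the overexpression library (5.78 to 6.80). ALK4 (YALI0B13816g) and ALK5 (YALI0B13838g), next to each other in identifier order, differed. ALK4 was at 12.7 RPKM in either library, whereas ALK5 went from 4.21 RPKM in the deletion to 24.7 in the overexpression library. ALK7, ALK9 and ALK12 were called higher from levels of 0.57, 0.28 and 0.13 RPKM in the deletion library, and with a pseudocount of 5 RPKM none of these 3, nor ALK3, was called. ALK10 was under 1 RPKM in every library and was not compared.

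Among the genes for oxidation of alcohols and aldehydes, 4 of 7 were called lower and 2 higher, beside 4.74% and 15.0% of all genes, with a median log2 ratio of −1.73. The 3 alcohol dehydrogenase genes on the list were all called lower in the overexpression library. ADH3 (YALI0A16379g) was at 1161 RPKM in the deletion, 345 in wild type and 114 in the overexpression library, 10.2-fold lower (9.97 to 10.4). ADH1 (YALI0D25630g) was at 108, 23.3 and 11.8 RPKM, 9.17-fold lower, and ADH2 (YALI0E17787g) at 276, 182 and 82.6 RPKM, 3.35-fold lower. In all 3 genes the deletion library was highest and the overexpression library lowest. The 4 fatty aldehyde dehydrogenase genes diverged. HFD2 (YALI0E00264g) was at 130, 14.6 and 4.58 RPKM, 28.4-fold lower in the overexpression library (26.01 to 31.0). HFD1 (YALI0F23793g) was nearly level, at 164, 179 and 168 RPKM. HFD4 (YALI0B01298g) was at 6.67, 8.32 and 16.6 RPKM and HFD3 (YALI0A17875g) at 0.52, 1.10 and 2.55 RPKM, both called higher at low levels and neither with a pseudocount of 5 RPKM.

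**Figure D2:**
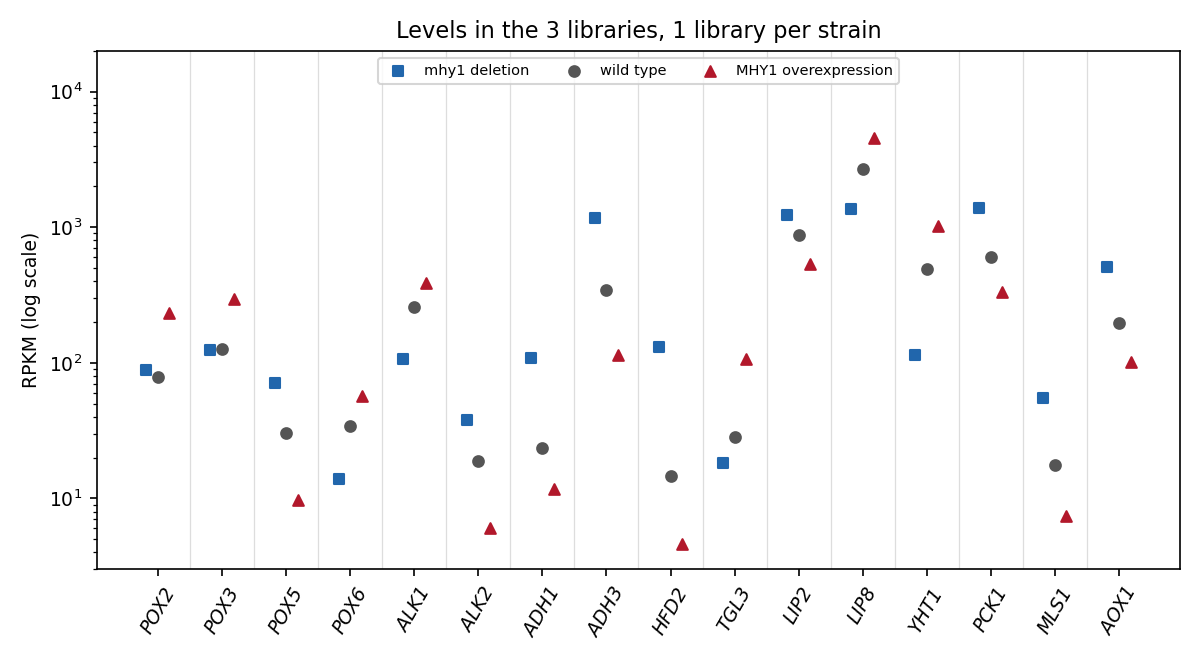
RPKM on a log scale of 16 named genes in the deletion, wild-type and overexpression libraries, 1 point per library. POX5, ALK2, ADH1, ADH3, HFD2, LIP2, PCK1, MLS1 and AOX1 were highest in the deletion library, and POX2, POX3, POX6, ALK1, TGL3, LIP8 and YHT1 were highest in the overexpression library.

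Of the 3 lipolysis genes 2 were called higher, and of the 3 lipase genes 1 was called higher and 1 lower, beside 15.0% and 4.74% of all genes. After centring, 1 gene of each list was higher. TGL3 (YALI0D17534g) and TGL4 (YALI0F10010g) have a part in the breakdown of stored triacylglycerol. TGL3 was at 18.3 RPKM in the deletion, 28.4 in wild type and 106 in the overexpression library. TGL4 was at 18.2, 26.8 and 42.0 RPKM, with a log2 ratio of 1.17 that was 0.96 after centring. For both genes wild type lay between the engineered strains, and TGL3 had the wider range, 5.81-fold. GUT2, the mitochondrial glycerol-3-phosphate dehydrogenase gene, was within 2-fold, with a ratio of −0.67. Of the secreted and surface lipases, LIP8 (YALI0B09361g) was 3.33-fold higher (3.30 to 3.35) at 1365 RPKM in the deletion and 4543 in the overexpression library, with 2684 in wild type, while LIP2 (YALI0A20350g) was 2.30-fold lower (2.28 to 2.33) at 1237 and 537 RPKM, with 873 in wild type. LIP7 was at 0.70 and 2.39 RPKM and was within 2-fold on the log2 scale.

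The genes listed under triacylglycerol assembly had a median log2 ratio of 0.11 and no common direction. The list is broader than the assembly steps themselves and also holds GPD1, at 0.19, and ARE1, at −0.45. Of the 7 genes, 4 lay above 0, beside 64.6% of all genes, and 2 did after centring. As deposited, 1 was called higher and 0 lower, beside 15.0% and 4.74% of all genes. DGA1 (YALI0E32769g) and DGA2 (YALI0D07986g) code for the acyltransferases of the last step. DGA1 was at 45.6 RPKM in the deletion, 75.8 in wild type and 105 in the overexpression library, with a ratio of 1.19 that was 0.99 after centring. DGA2 was at 42.8, 43.5 and 83.5 RPKM, with a ratio of 0.95. LRO1, which carries out the same step with a phospholipid as donor, was at −0.39, and SCT1, which starts the assembly on glycerol 3-phosphate, at −0.87. The acyltransferase genes of the last step thus differed among themselves by more than the shift between scalings.

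The 10 genes of fatty acid synthesis had a median log2 ratio of −0.62, with 7 below 0, beside 2138 of all 6035. Of these 10, 2 were called lower and 1 higher, beside 4.74% and 15.0% of all genes. The highest decile of expression, which holds every member but MAE1, had a median of −0.15, with 8.44% called lower. MAE1 (YALI0E18634g), the malic enzyme, was at 33.5 RPKM in the deletion, 15.4 in wild type and 8.10 in the overexpression library, 4.14-fold lower. ACC1 (YALI0C11407g), acetyl-CoA carboxylase and the committed step, was at 409, 328.5 and 206 RPKM. Its ratio of −0.99 lay just within 2-fold and was −1.16 to −1.20 under the scalings and centring. FAS1 and FAS2, for the subunits of fatty acid synthase, were at −0.61 and −0.79, and the desaturase genes OLE1 and FAD2 at −0.63 and −0.47. The elongase genes split: ELO1 (YALI0F06754g) was at 639 RPKM in the deletion and 312 in the overexpression library, and ELO2 (YALI0B20196g) at 327.7 and 760 RPKM. ELO2 fell just short of 2-fold with median of ratios scaling. The ATP citrate lyase genes ACL1 and ACL2, which supply acetyl-CoA, were nearly level as deposited at 0.12 and 0.05 and below 0 under the scalings and centring.

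In the citrate and glyoxylate cycles, each of the 16 genes lay below 0 on the log2 scale, under both scalings and centring too. Of all 6035 genes, 2138 lay below 0 as deposited. MLS1 alone was called, beside 4.74% of all genes called lower. The highest decile of expression, which holds every member but MLS1, had a median of −0.15, with 8.44% called lower. The list's median was −0.67, and −0.87 after centring, when 5 of its genes were past 2-fold, beside 386 lower of all 6035. The difference was shared by abundant transcripts: summed over the list, levels were 18756 RPKM in the deletion, 13590 in wild type and 12047 in the overexpression library. The malate dehydrogenase genes MDH1 and MDH2 had ratios of −0.87 and −0.99, the oxoglutarate dehydrogenase gene KGD1 −0.82, and the fumarase gene FUM1 −0.72. The aconitase gene ACO1 was at −0.33 and the succinate dehydrogenase gene SDH1 at −0.22, the nearest to 0 after MLS2. The malate synthase genes differed by far. MLS1 (YALI0D19140g) was at 54.5, 17.7 and 7.41 RPKM, 7.36-fold lower in the overexpression library (6.85 to 7.91), while MLS2 (YALI0E15708g) was at 328.5, 248.3 and 311 RPKM with a ratio of −0.08. ICL1 (YALI0C16885g), isocitrate lyase, which acts before malate synthase, was at 1464, 732 and 822 RPKM, with a ratio of −0.83.

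**Figure D3:**
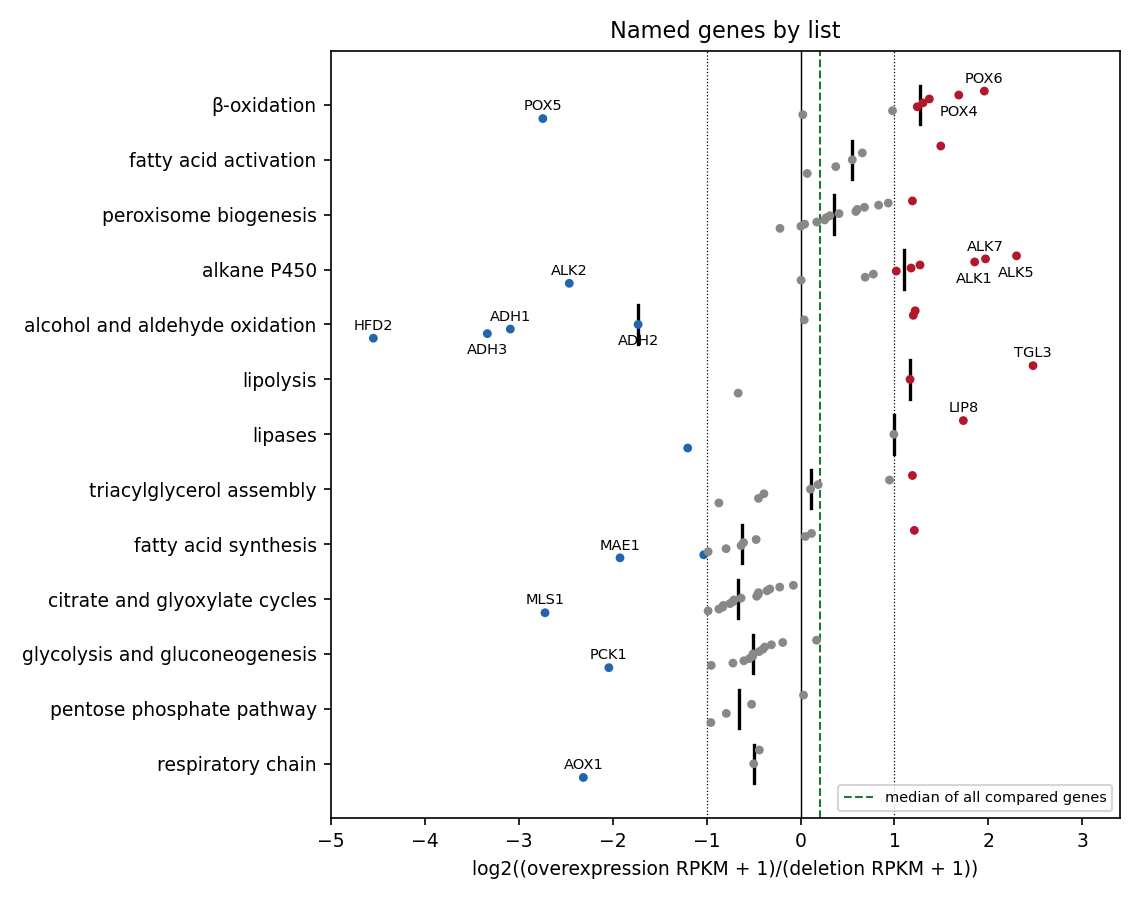
log2 ratio of overexpression to deletion for the compared members of 13 lists, 1 point per gene, with red and blue for genes called higher and lower, a black bar at each list's median, dotted lines at 2-fold and a dashed line at the median of all genes, 0.20. The oxidases other than POX5 lie to the right, and the citrate and glyoxylate cycle genes all lie left of 0.

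In glycolysis and gluconeogenesis, 12 of 13 genes lay below 0, beside 2138 of all 6035, and the median log2 ratio was −0.51. The exception, the glucokinase gene GLK1 at 0.17, was below 0 as well under the scalings and centring. The highest decile of expression, which holds these genes except GLK1 and HXK1, had a median of −0.15. Of the 13 genes, 1 was called lower and 0 higher, beside 4.74% and 15.0% of all genes. PCK1 (YALI0C16995g), phosphoenolpyruvate carboxykinase, which starts gluconeogenesis, was the called member, at 1385 RPKM in the deletion, 598.2 in wild type and 335.4 in the overexpression library, 4.13-fold lower (4.08 to 4.17). FBP1, fructose bisphosphatase of the same pathway, was at −0.40, nearer to 0 than the median of the list. HXK1, hexokinase, was at −0.95 and aldolase FBA1 at −0.72, and pyruvate kinase PYK1 at −0.19. The pentose phosphate genes TKL1, TAL1 and GND1 were at −0.96, −0.79 and −0.52, whereas ZWF1, the gene of the first enzyme, was at 0.03 as deposited and −0.17 after centring. ACS2 (YALI0F05962g), acetyl-CoA synthetase, was called lower at 995, 635 and 466 RPKM, and pyruvate carboxylase PYC1 was at −0.36. For scale among abundant genes, TEF1, a translation elongation factor, was at −0.35 and ACT1, actin, at 0.33.

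Sugar uptake and respiration each held a gene far past 2-fold. The hexose transporter genes, ACS2, PYC1, LPD1, HOY1, NUAM, AXP1, ACT1 and TEF1 were listed after their ratios had been seen, and 13 other candidates seen at the same time were not listed, so that these genes illustrate and do not sample their pathways. YHT1 (YALI0C06424g), a hexose transporter, was at 115 RPKM in the deletion, 493 in wild type and 1013.7 in the overexpression library, 8.82-fold higher (8.64 to 8.995). YHT4 was within 2-fold at 137 and 189 RPKM, and YHT3 was under 1 RPKM in every library. AOX1 (YALI0D09933g), the alternative oxidase that passes electrons to oxygen without pumping protons, was at 505.1, 197 and 101 RPKM, 5.01-fold lower (4.89 to 5.14). The alternative NADH dehydrogenase gene NDH2 and the complex I subunit gene NUAM were within 2-fold, at −0.50 and −0.44.

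Neither of the other regulators listed here for hyphal growth was called. HOY1 (YALI0A18469g), a homeobox gene, was at 16.03 RPKM in the deletion, 15.2 in wild type and 31.7 in the overexpression library, with a log2 ratio of 0.94. For RIM101 (YALI0B13640g), a regulator of the response to pH, the levels were 234, 219 and 241 RPKM. The widest differences after MHY1 lay in genes without a name here. Of the genes that reached 10 RPKM in either library, YALI0F07535g was at 3.71 RPKM in the deletion, 380 in wild type and 2727 in the overexpression library, 735-fold higher (640 to 850). YALI0C23452g was at 1.23, 837 and 1070 RPKM, 872-fold higher (754 to 1014.4), with wild type close to the overexpression library. With the pseudocount, the log2 ratios of YALI0F07535g and YALI0C23452g were 9.18 and 8.91. YALI0C03443g was at 2543, 2191 and 28.3 RPKM, 90.0-fold lower (82.2 to 98.6), with wild type close to the deletion library. YALI0E14707g was at 658, 154 and 7.11 RPKM, 92.6-fold lower (85.4 to 100). These 4 genes thus differed in where wild type stood.

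Across all lists, 113 named genes were compared, of which 22 were called higher, 13 lower and 78 neither, beside 15.0% higher and 4.74% lower of all genes, with MHY1 among the higher. Without the 11 names listed after their ratios had been seen, 21 of 103 were higher and 12 lower. After centring, 16 of all 113 were higher and 21 lower.

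The ratio fell with the level of expression. In the lowest decile of the mean RPKM over the 3 libraries the median log2 ratio was 0.75, and 37.9% of genes were called higher and 2.81% lower. In the highest decile it was −0.15, with 8.94% higher and 8.44% lower. The filter bears on the first value: 160 genes passed it by the overexpression library alone and 12 by the deletion library alone, and 92 of the 160 were called higher. Without both sets the lowest decile had a median of 0.53. Over all 6448 listed genes, 157 were at 0 in the deletion, 127 in the wild-type and 77 in the overexpression library. Of the genes that passed the filter, which itself depends on these levels, 25 were at 0 in the deletion library, MHY1 among them, and 1 in the overexpression library. The deletion library held 59527000 reads and the overexpression library 75306802, and the part of depth in these counts was not tested. Of the 25 genes, 10 were at 5 RPKM or more in the overexpression library, the highest after MHY1 at 101 RPKM.

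**Figure D4:**
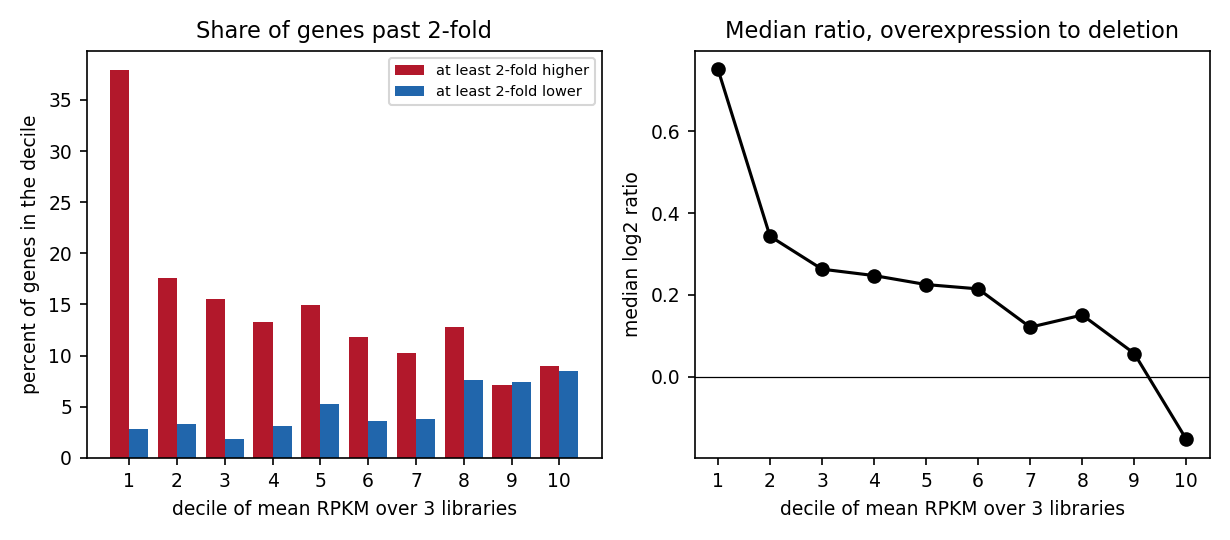
Share of genes at least 2-fold higher or lower (left, percent) and median log2 ratio (right) by decile of the mean RPKM over the 3 libraries. The share called higher is 37.9% in the first decile and 8.94% in the last, and the median goes from 0.75 to −0.15.

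The called genes were spread over all chromosomes. By the letter in the identifier, the share called higher ran from 13.6% on chromosome F to 18.3% on chromosome C, and the share called lower from 3.67% on B to 5.57% on A. Chromosome medians lay between 0.16 and 0.23. Of the genes called higher, 20.9% were followed in identifier order by another gene called higher, where 15.0% of all genes were. With only genes at a mean of 10 RPKM or more, the values were 15.0% and 11.9%, so the excess was smaller. Of the genes called lower, 6.67% were followed by another, where 4.74% of all genes were. The longest run of neighbours was 5 genes on chromosome F, all higher, with log2 ratios from 1.30 to 3.27 and levels from 2.93 to 1175 RPKM in the overexpression library. The longest run of lower genes was 3. Among the 222 compared genes that lay within 20 identifiers of a chromosome's first or last one, 16.2% were higher and 5.41% lower. These pooled shares were close to those of all genes, but single ends differed. The share called higher ran from 5.26% of 19 genes at the high-number end of C to 33.3% of 18 at the low-number end of A. On A, B, C, D and F the low-number end had the larger share called higher, and on E the high-number end did.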

How the data were processed

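Total RNA of 3 Y. lipolytica cultures, 1 per strain, was sequenced from TruSeq libraries made from 1 µg of RNA, per the labels' protocols; strandedness is not given there. The deposited values are RPKM, per the file headers. The submitters' processing notes name TopHat2 2.1.1 and Cufflinks 2.2.1 without a role, beside a mouse genome build that cannot have given Yarrowia identifiers. The sources used here do not state the yeast annotation or how reads were counted, so antisense, overlapping and near-identical genes are uncertain.

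Since small RPKM values fall on multiples of 1 read, library totals, gene lengths and reads were recovered, with tolerances settled on these files; 99.98% of values above 0 came within 0.01 of a whole read. A recovered length can be a fraction of the true one, which widens an interval. No count test was run. The recovery and the ratios were also run on simulated data, which took the recovered lengths as the true ones and held counting noise only. Such data cannot show whether the recovered lengths are right or how far cultures vary. Analyses used Python 3.11.15, numpy 2.4.6, pandas 2.3.3 and scipy 1.17.1.

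The comparison, the lists and their members were chosen with earlier results of these data known, and 11 names were added after their lengths, levels and ratios had been seen, while 13 others seen with them were not listed. Expected lengths were recalled, a few were corrected and the limits of agreement set after the recovered lengths had been seen. Of 121 names, 115 were kept. For 65 names the length compared was the recalled Yarrowia protein, of which 45 agreed exactly and 63 within 5%. For 52 it was the Saccharomyces cerevisiae protein, and all were within 15%, 43 of them within 5%; this check is weak. FAT1, PXA1, PXA2, ELO2, MAE1, GUT2, TGL4 and YHT4, more than 5% off, and HOY1, which needed 5 multiples, are the least certain of the genes described. Up to 5 whole multiples of the recovered length were allowed, and 14 kept names needed more than 1. FAO1 and ALK8 missed their length, and 4 regulators had no length to compare. Named genes were MHY1 and its neighbours, the 2 highest and 2 lowest ratios, list members past 2-fold, and members needed to describe a list. None (0) of the identifiers matched RefSeq assembly ASM176148v1.

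Alternatives were pseudocounts of 0.1 and 5 RPKM, no filter, filters at 10 RPKM and on the 2 libraries alone, both scalings, centring, and thresholds of 1.5-fold and 4-fold. The value of 1 member of the peroxisome biogenesis list is not reported here.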

Additional observations from a re-analysis of the deposited data

How the results depend on the processing

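No paired analysis was possible because each strain had 1 library, which also leaves no replicate to leave out. A pseudocount of 5 RPKM gave 591 higher genes. At 1.5-fold, 1671 genes were higher and 531 lower, and 35 and 32 list members; at 4-fold, 269 genes and 4 members were higher, and 93 genes and 8 members lower. Both changes act by construction. With 13 list members called lower as deposited, scaling by median of ratios gave 23, by upper quartile 20, and centring 21. The citrate and glyoxylate median was −0.89, −0.84 and −0.87 under these, and that of glycolysis −0.72 under the first. The triacylglycerol assembly median, near 0, turned to −0.11, −0.0671 and −0.0969. The median of all genes became −0.0026 under median of ratios scaling, where chromosomes B, C and D were at −0.0025, −0.0255 and −0.044, and D was at −0.0044 under upper-quartile scaling. The cause of the shift between scalings was not tested. For lists with 5 or more compared genes, 65 of 72 medians under the alternatives stayed within bounds drawn from the list's own members. In the shortest lists these bounds were the lowest and highest member, so a median could hardly leave them, and the filters mostly left it unchanged. The alkane P450 median went from 1.10 to 0.43 with a pseudocount of 5 RPKM and still counted as within. Of 307 values of 39 called named genes, 287 stayed past 2-fold in the same direction, 20 fell short of it and 0 changed sign. The values under no filter and the other filters cannot differ from the deposited ones, so they add nothing to this count. The genes also include MHY1 and those picked for the highest and lowest ratios. Leaving out genes that passed by 1 library, for the lowest decile and for weak genes, and the limit of 10 RPKM for neighbours were chosen after seeing the data. Few reads limit weak genes, such as ALK12 with 12 in the deletion library.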
